A study of Mus musculus with 3 samples.

Results

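Aldehyde dehydrogenases oxidise reactive aldehydes to carboxylic acids with NAD+ or NADP+, and acetyl-CoA synthetases join the acetate that such reactions yield to coenzyme A. In mast cells the family stands at the end of histamine and serotonin breakdown, since amine oxidases turn both amines, or the methylated form of histamine, into aldehydes. The acetyl-CoA made from acetate feeds the citric acid cycle in mitochondria, and lipid synthesis and histone acetylation outside them. The genes described here are 8 aldehyde dehydrogenase genes (Aldh2, Aldh1a1, Aldh1b1, Aldh3a2, Aldh3b1, Aldh4a1, Aldh7a1 and Aldh9a1) and 2 acetyl-CoA synthetase genes (Acss1 and Acss2). They were picked by name, with values of these arrays known, and make up 10 of the 22180 genes compared. All 10 were measured, by 14 probe sets, of which 13 named 1 gene.

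Cells from the peritoneal cavity of naive BALB/c females aged 10 to 11 weeks, with no treatment or genetic change given, were pooled over 5 mice and sorted by flow cytometry into 3 populations, called here progenitors (of mast cells), mature cells (mature mast cells) and ILC2s (innate lymphoid cells of type 2). RNA of 100 cells per population was amplified and hybridised to 1 array. Progenitors were c-kit high and FcεRI positive with low side scatter and high integrin β7, mature cells were the same with high side scatter and lower integrin β7, and ILC2s were c-kit negative to low and FcεRI negative with CD127 and CD25. All 3 gates required T1/ST2 and little or no lineage staining, and both mast cell gates excluded CD127 and CD25 and took intermediate staining for the Fcγ receptors CD16 and CD32, which ILC2s lacked. With 1 array per population the spread of a value is unknown and no test was possible, so an order of levels among the populations is that of these 3 arrays.

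Values are log2 levels, so a difference of 1 is 2-fold and a difference of 2 is 4-fold. A gene was counted as higher or lower when its level differed by at least 2 between 2 arrays. The brighter level also had to lie above that array's median. This median was taken over the probe sets that name 1 gene and stood at 6.32 for progenitors, 6.30 for mature cells and 6.30 for ILC2s. Levels were exactly equal on all 3 arrays for 47.9% of genes, which the summary of probes can produce, so a tie does not show equal expression. Of 8 mast cell markers, all were higher in mature cells than in ILC2s, 7 of them by at least 4-fold, and in progenitors 3 were. Cpa3, mast cell carboxypeptidase, was at 12.30 in progenitors, at 12.83 in mature cells and at 5.28 in ILC2s. The sort marker Kit was at 6.88 in progenitors, at 10.29 in mature cells and at 6.63 in ILC2s, and Fcer1a was at 5.37, 8.87 and 5.05 in the same order. At the transcript level, progenitors thus lay 0.26 (Kit) and 0.32 (Fcer1a) above ILC2s. Both of these Fcer1a levels lay below the array medians, where a difference could go unseen. By protein, progenitors were gated as positive for both and ILC2s as c-kit negative to low and FcεRI negative. Of 8 ILC2 markers, Il7r, Klrg1 and Arg1 were at least 4-fold higher in ILC2s than in both mast cell populations, and the other 5 did not reach 2-fold. In both mast cell populations minus ILC2s, the log2 difference was -0.66 for Il2ra, which encodes the gate marker CD25, and -0.49 for Il5, while Il13 was at 7.65 in progenitors against 7.41 in ILC2s, and Gata3 and Rora differed by at most 0.06. None of 37 measured markers of macrophages, B cells, T cells, granulocytes and mesothelial or stromal cells reached 2-fold in any comparison. Of all genes, 2.44%, 2.65% and 2.6% did for progenitors against mature cells, progenitors against ILC2s and mature cells against ILC2s. The widest range among the markers was 0.77, of Ccr3, which lay below the array medians. A narrow range does not show absence, and the highest of these markers, Ighm, was at 8.43 in progenitors and at 8.24 in mature cells and ILC2s.

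Of the 10 genes, Aldh2 and Acss1 differed by at least 4-fold between populations, in different directions. Aldh2 was highest in mature cells, intermediate in progenitors and lowest in ILC2s, whereas Acss1 was high in ILC2s and equal in both mast cell populations. The other 8 genes spanned at most 0.30 on the log2 scale across the 3 arrays, which is 1.23-fold. These values are those by which the genes came to be chosen, and they are given as a description. In bulk samples such as these, fewer cells of a type and less RNA per cell cannot be told apart.

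**Figure D1:**
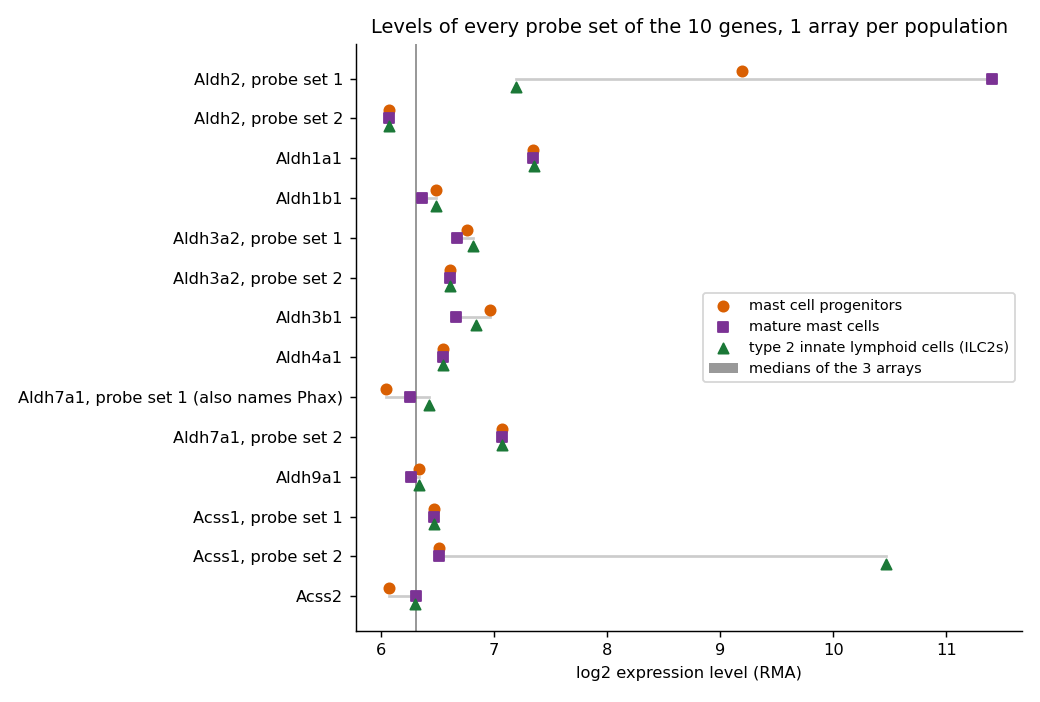
Log2 expression level (horizontal axis) of each of the 14 probe sets naming the 10 genes (rows), with 1 point per population and a grey line over their range; the vertical band spans the medians of the 3 arrays. Aldh2 probe set 1 spreads over 7.19 to 11.41 and Acss1 probe set 2 over 6.51 to 10.47, while the other probe set of each gene has 1 value on all 3 arrays.

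Counted over the set, 1 of 10 genes was lower by the 4-fold rule in progenitors than in mature cells (Aldh2) and none was higher. Over all 22180 genes, 0.834% were lower and 0.113% higher in that comparison. Against ILC2s, 1 was higher in progenitors (Aldh2) and 1 lower (Acss1), where 0.207% of all genes were higher and 0.888% lower. In mature cells against ILC2s the same 2 genes counted, Aldh2 as higher and Acss1 as lower, where 0.573% of all genes were higher and 0.401% lower. The genes were chosen with these differences known, so nothing is read from the shares. The median log2 difference of the 10 genes was 0 for progenitors minus mature cells, 0 for progenitors minus ILC2s and -0.04 for mature cells minus ILC2s, and the median of all genes was 0 in each.

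**Figure D2:**
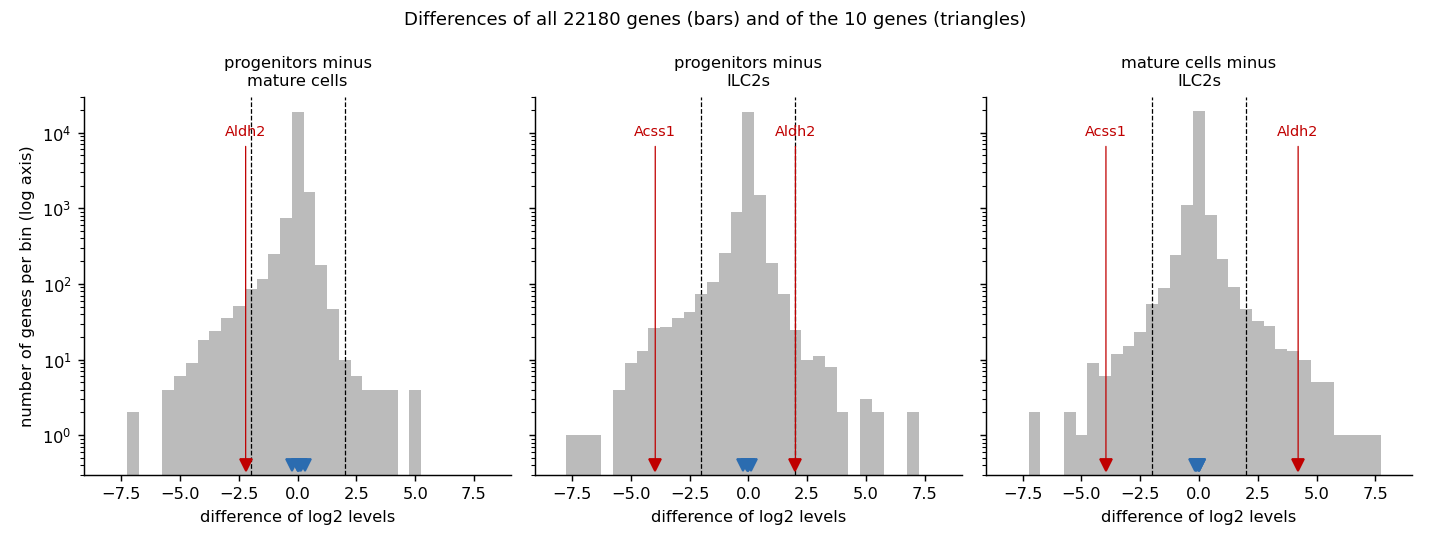
Number of genes (vertical, log axis) by difference of log2 levels (horizontal) for the 3 pairs of arrays, with the 10 genes as triangles on the axis, red past 4-fold and blue otherwise; dashed lines mark 4-fold. Aldh2 is at -2.21, 2.00 and 4.21 and Acss1 at -3.96 in both comparisons with ILC2s, while the other genes lie within 0.30 of 0.

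Aldh2 encodes the mitochondrial enzyme best known for oxidising acetaldehyde formed from ethanol, and it also clears aldehydes from lipid peroxidation. Its level stood at 9.20 in progenitors, at 11.41 in mature cells and at 7.19 in ILC2s. All 3 levels lay above the medians of their arrays. Aldh2 was 4.63-fold lower in progenitors than in mature cells (log2 difference -2.21). It was 4.01-fold higher in progenitors than in ILC2s, a log2 difference of 2.00 that lies at the threshold. It was 18.6-fold higher in mature cells than in ILC2s (log2 difference 4.21). Centring each array on its median took the difference between progenitors and ILC2s to 1.99, just under the threshold.

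The 4.21 of Aldh2 ranked 26th among the 127 genes counted as higher in mature cells than in ILC2s. Against mature cells, the difference of the progenitors ranked 151st of 185 lower genes, and against ILC2s it was the smallest of the 46 higher ones. Of all 22180 genes, Aldh2 was the 1 gene whose level in progenitors lay at least 4-fold below that in mature cells and at least 4-fold above that in ILC2s, a count made after its values were seen. With steps of at least 2-fold there were 12 such genes, Aldh2 included. Of the others, Cma1 and Mcpt4 are chymase genes, Tpsb2 is a tryptase gene and Tyrobp a signalling adaptor gene. The rest were Cyp11a1, Dpep2, Gm26504, Mrgprb1, Serpinb1a, Snora75 and Zfp981. With arrays centred on their medians the count of genes with both 4-fold steps was 0, since Aldh2 then missed the second step, and with the mean over probe sets it was also 0.

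These values of Aldh2 come from 1 of its 2 probe sets. The other was at 6.07 on all 3 arrays, below each array's median. With the mean of both probe sets, the differences were -1.11 for progenitors minus mature cells, 1.001 for progenitors minus ILC2s and 2.11 for mature cells minus ILC2s, so that the last alone stayed past 4-fold. Other genes past 4-fold also had probe sets that did not pass. Each gene was called by its brightest probe set, so the others were dimmer by that choice. The counts that follow are thus no general measure of agreement. Where a gene past 4-fold was covered by more than 1 probe set, another of them passed in the same direction in 9 of 42 genes for progenitors against mature cells, in 17 of 62 for progenitors against ILC2s and in 7 of 30 for mature cells against ILC2s.

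Acss1 encodes the mitochondrial acetyl-CoA synthetase, which lets tissues burn acetate. Its level stood at 6.51 in progenitors, at 6.51 in mature cells and at 10.47 in ILC2s. The level in both mast cell populations was exactly equal and lay 0.19 and 0.21 above the medians of those arrays. Acss1 was 15.6-fold lower in progenitors than in ILC2s and 15.6-fold lower in mature cells than in the same ILC2s (log2 difference -3.96 in both, which share the ILC2 array). These folds are as measured, and with the dimmer levels so close to the medians they may be understated, as may the ranks. It ranked 47th among 197 genes lower in progenitors and 18th among 89 genes lower in mature cells. Of 82 genes at least 4-fold higher in ILC2s than in both mast cell populations, Acss1 was 13th by its smaller difference. Here too the second probe set disagreed, at 6.47 on all 3 arrays, and the mean of both probe sets gave a log2 difference of -1.98 in both comparisons, just under the threshold.

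The bases before the start of Acss1 are shown as the promoter region of the member that was high in ILC2s. They are taken from RefSeq on GRCm38.p6, chr2:150668241-150668490, minus strand, read 5′ to 3′ up to the base before the annotated start. Capitals mark matches to GGGCGG, the core of the GC box that Sp-family factors bind.
Acss1: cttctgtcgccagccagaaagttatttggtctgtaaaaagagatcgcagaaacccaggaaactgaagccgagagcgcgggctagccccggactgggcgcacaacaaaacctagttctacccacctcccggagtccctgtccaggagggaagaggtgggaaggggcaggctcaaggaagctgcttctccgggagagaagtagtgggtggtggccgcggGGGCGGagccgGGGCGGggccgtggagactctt
Both strands were searched and the 2 matches in these 250 bases do not overlap. The same letters occurred in 32.7% of 32851 promoter entries of that length, of which a gene can have several. AGATAA, a form of the GATA motif, CCAAT and TATAAA had no match in this window and occurred in 9.99%, 33.8% and 12.4% of the entries. The array data do not measure promoter use or binding, so the matches only describe the sequence.

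Acss2, which makes acetyl-CoA in the cytosol and nucleus, did not share the pattern of Acss1. Its level stood at 6.07 in progenitors, at 6.31 in mature cells and at 6.30 in ILC2s. The level in progenitors lay below the median of that array and the others were within 0.02 of theirs, so Acss2 was close to the middle of all probe sets on every array, where a difference between populations could go unseen.

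The cytosolic enzyme of Aldh1a1 makes retinoic acid from retinal and is a common marker of stem cells by its activity. Aldh1a1 was at 7.34 in progenitors, at 7.34 in mature cells and at 7.35 in ILC2s. The values of progenitors and mature cells were tied, and ILC2s differed from them by 0.01. Aldh1b1, a mitochondrial relative of Aldh2 that also accepts acetaldehyde, was at 6.48 in progenitors, at 6.36 in mature cells and at 6.48 in ILC2s. Aldh1b1 was thus lowest in mature cells, by 0.12, which is short of 2-fold, so no contrast with Aldh2 is read from it.

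Aldh3a2 and Aldh3b1 encode enzymes that act on fatty and medium-chain aldehydes at membranes, and loss of human ALDH3A2 causes Sjögren-Larsson syndrome. Aldh3a2 was at 6.76 in progenitors, at 6.67 in mature cells and at 6.82 in ILC2s, and its second probe set was at 6.61 on all 3 arrays. Aldh3b1 was at 6.96 in progenitors, at 6.66 in mature cells and at 6.84 in ILC2s. Its difference of 0.30 between progenitors and mature cells was the widest among the 8 genes, and that of Aldh3a2 was 0.09. Neither reached 2-fold, so no contrast with Aldh2 is read from them.

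The remaining 3 enzymes serve amino acid and carnitine metabolism. Aldh4a1, the mitochondrial enzyme that completes proline breakdown to glutamate, was at 6.55 on all 3 arrays. Aldh7a1, which acts in lysine breakdown and betaine synthesis, was at 7.07 on all 3 arrays. A further probe set names both Aldh7a1 and Phax, a gene for RNA export, and was at 6.04 in progenitors, at 6.26 in mature cells and at 6.42 in ILC2s, so its values belong to neither gene for certain. Aldh9a1, which oxidises the aldehyde precursor of carnitine synthesis, was at 6.33 in progenitors, at 6.26 in mature cells and at 6.33 in ILC2s. Among the 10 genes, 8 lay above the array median in all 3 populations, the exceptions being Aldh9a1 in mature cells and Acss2 in progenitors and ILC2s.

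Likeness in pattern was sought among 9929 genes outside the 10 with a brightest level above the median of its array. Olfactory receptor, vomeronasal receptor, microRNA and small nucleolar RNA genes and provisional names were left out beforehand. The genes closest to Aldh2 were found by the Euclidean distance over the 3 arrays after each gene's mean was taken off. They were Serpinb1a, an inhibitor of granule serine proteases, at 8.27 in progenitors, at 10.71 in mature cells and at 6.73 in ILC2s (distance 0.32), Rgs18, a regulator of G protein signalling of blood cells, at 5.93, 8.69 and 4.24 in the same order (distance 0.39), and Mrgprb1, a Mas-related receptor gene of mast cells, at 7.66, 10.55 and 5.73 (distance 0.53). Those closest to Acss1 were Rnf125, a ubiquitin ligase gene, at 6.69 in progenitors, at 6.58 in mature cells and at 10.81 in ILC2s (distance 0.19), the chemokine receptor gene Ccr2 at 5.82, 5.82 and 9.50 (distance 0.23) and Tgds at 5.98, 5.73 and 9.62 (distance 0.24). With 3 arrays such likeness rests on 3 values per gene. Rgs18 in progenitors and ILC2s and Mrgprb1 in ILC2s lay below the array medians, as did Ccr2 and Tgds in both mast cell populations, so their differences at those levels may be understated.

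**Figure D3:**
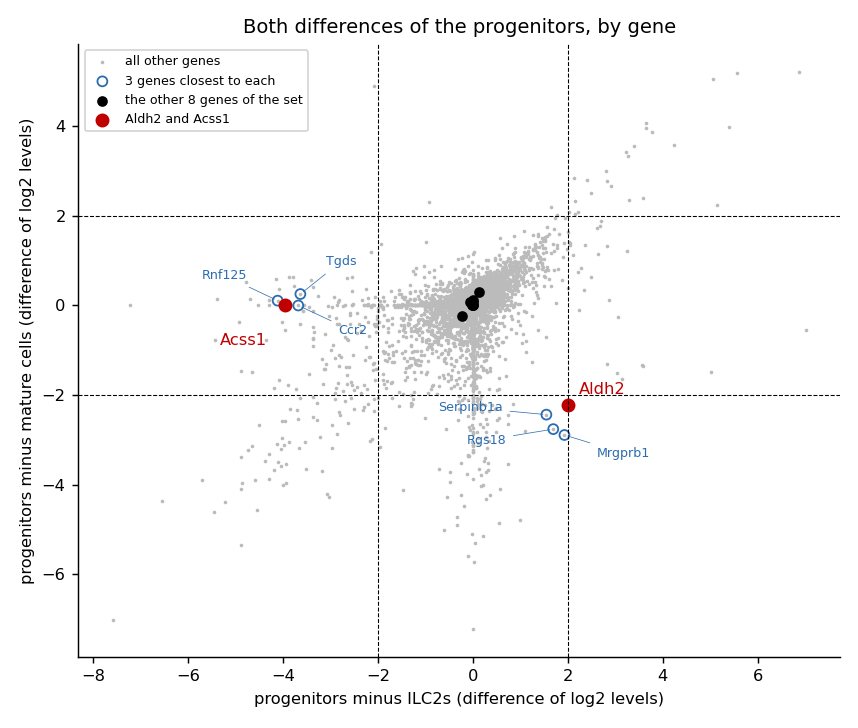
Each point is a gene, placed by its difference of log2 levels between progenitors and ILC2s (horizontal) and between progenitors and mature cells (vertical); both differences share the progenitor array. Aldh2 sits at 2.00 and -2.21 in the lower right corner marked off by the dashed 4-fold lines, next to Serpinb1a, Rgs18 and Mrgprb1, and Acss1 lies at -3.96 and 0 beside Rnf125, Ccr2 and Tgds.

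Among the other aldehyde dehydrogenase genes no further difference was seen. All 13 were measured, none reached 2-fold in any comparison and 8 had exactly equal levels on all 3 arrays, so that with the 8 described above 10 of 21 listed genes of the family were tied. Levels of the 13 ran over 5.24 to 7.10, and 9 of 13 lay below the median on every array, where a difference could go unseen. Aldh3b3, a relative of Aldh3b1, had the widest range, at 7.08 in progenitors, at 6.89 in mature cells and at 6.72 in ILC2s. The retinoic acid-forming genes Aldh1a2 (6.73) and Aldh1a3 (5.90) and Aldh18a1 (6.43), which acts in proline synthesis, each had 1 value on all 3 arrays.

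Together with these, genes around aldehydes and acetate were taken from 7 lists with 93 measured genes. None was at least 4-fold different in any comparison, and 49.5% had equal levels on all 3 arrays. Over all genes the shares past 4-fold in either direction were 0.947% for progenitors against mature cells, 1.1% for progenitors against ILC2s and 0.974% for mature cells against ILC2s. By the 2-fold rule, 2 of the 93 were lower in progenitors than in mature cells, 1 was lower in progenitors than in ILC2s, and 2 were higher and 1 lower in mature cells than in ILC2s. The corresponding shares of all genes past 2-fold were 2.44%, 2.65% and 2.6%.

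The pair that was higher in mature cells consisted of Maob and Dhrs3. Maob encodes monoamine oxidase B, which turns the methylated form of histamine into an aldehyde. Maob was at 7.64 in progenitors, at 8.82 in mature cells and at 7.64 in ILC2s, a log2 difference of -1.17 for progenitors minus mature cells. Dhrs3 encodes a reductase that returns retinal to retinol. Its level stood at 6.95 in progenitors, at 8.78 in mature cells and at 6.90 in ILC2s, a log2 difference of -1.83 for progenitors minus mature cells. Cat, the gene of catalase, was also highest in mature cells, at 7.51 against 6.90 in progenitors and 6.94 in ILC2s, and Akr1c12, an aldo-keto reductase gene, was highest in progenitors, at 7.45 against 6.77 in mature cells and 6.99 in ILC2s. Neither reached 2-fold. Unlike Aldh2, neither Maob nor Dhrs3 was raised in progenitors over ILC2s by more than 0.06. Of the other genes of histamine and serotonin breakdown, Hnmt, histamine methyltransferase, was at 6.24 on all 3 arrays, Maoa was at 5.72 in progenitors, at 5.77 in mature cells and at 5.72 in ILC2s, and Aoc1, diamine oxidase, was at 5.90, 5.59 and 5.56 in the same order. All of these values lie below the array medians.

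On the acetyl-CoA side, 1 of 22 measured genes reached 2-fold. Pdhb, a subunit of the pyruvate dehydrogenase complex that makes acetyl-CoA from pyruvate in mitochondria, was at 6.47 in progenitors, at 6.91 in mature cells and at 7.92 in ILC2s. Pdhb thus was highest in the same population as Acss1, by log2 differences of -1.45 for progenitors minus ILC2s and -1.01 for mature cells minus ILC2s. Acly, which makes acetyl-CoA from citrate in the cytosol, was at 6.61 on all 3 arrays, and Sirt3, the mitochondrial deacetylase that activates the enzyme of Acss1, was at 6.36 on all 3. Slc16a1, a carrier of short monocarboxylates, was at 6.05 in both mast cell populations, and the log2 difference of progenitors minus ILC2s was 0.05. Sirt1, a deacetylase acting on the enzyme of Acss2, was at 6.32 in progenitors, at 6.69 in mature cells and at 6.24 in ILC2s. None of 12 retinoic acid genes, 8 acyl-CoA synthetase genes for longer chains and 6 proline and carnitine genes reached 2-fold, and the largest difference among these 3 lists was 0.37, for the carnitine carrier gene Slc22a5 (7.24 in progenitors, 6.87 in mature cells). Among the retinoic acid genes, the largest differences between any 2 arrays were 0.19 for Rara and 0.16 for Rarb, both retinoic acid receptor genes. Among the acyl-CoA synthetase genes they were 0.17 for Acsl5 and 0.06 for Acsf3. Shmt2, with 0.14, came second to Slc22a5 among the proline and carnitine genes.

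**Figure D4:**
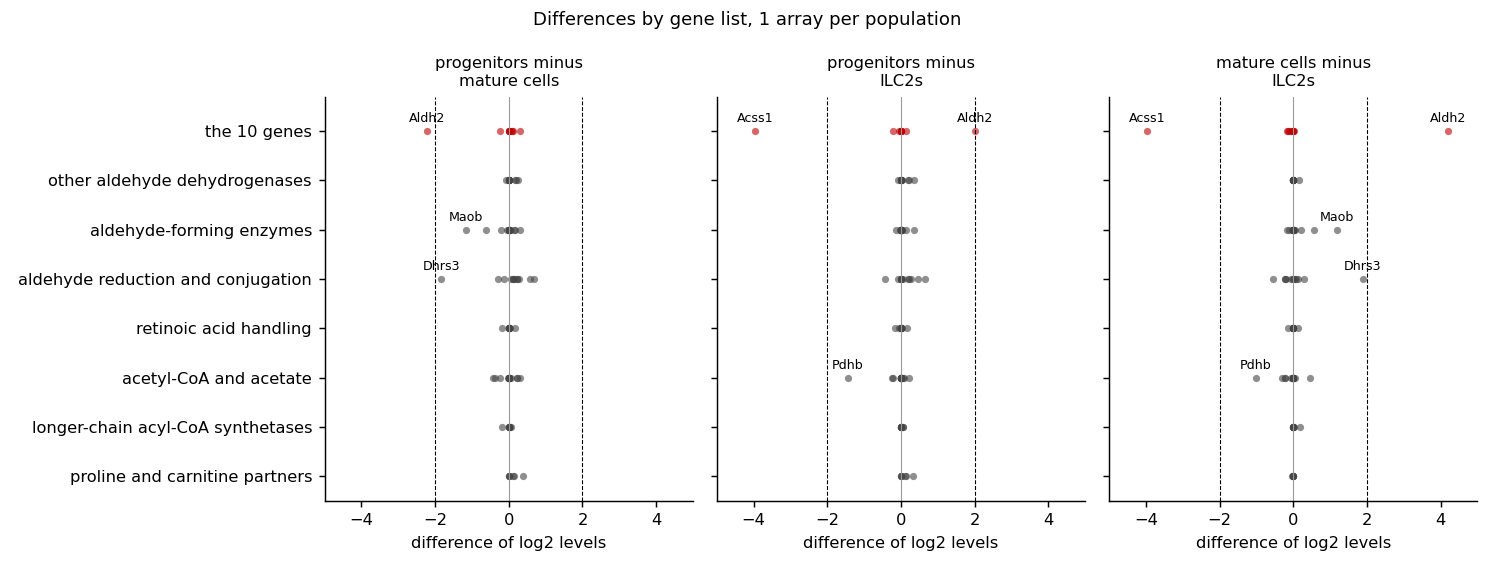
Differences of log2 levels (horizontal) of the 10 genes (red) and of the measured genes of 7 related lists (grey, rows) for the 3 pairs of arrays; dashed lines mark 4-fold and genes past 2-fold are named. Outside the 10 genes, Maob, Dhrs3 and Pdhb are named, and Dhrs3 comes closest to 4-fold, with -1.83 for progenitors minus mature cells and 1.89 for mature cells minus ILC2s.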

How the data were processed

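Cells of 3 populations from 1 pool of 5 mice were profiled with 1 array each. The deposited values are log2 levels of 41345 probe sets. Per the submitters' processing notes, the authors used RMA, for which no program is given. That the scale is log2 follows from the range of 2.23 to 13.7. In its usual form RMA removes background, equalises the arrays and combines probes by median polish, which over 3 arrays can give tied values although probe signals differ. Differences of dim genes may be understated where part of their signal is background. The number of arrays limits the precision.

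Gene names came from the platform annotation. By it, 23521 probe sets named 1 gene, 1814 several and 16010 were unnamed in the table used. The Entrez identifiers of all 10 genes matched the same symbols in RefSeq (GRCm38.p6). The genome build of the arrays' annotation is not given in the sources used here. A gene was represented by the brightest of its single-gene probe sets by mean level. Differences of log2 levels were taken with pandas 2.3.3 under Python 3.11.15, and the counting rule was tested on simulated data. The RefSeq promoter table used here was matched by symbol for 8 of the 10 genes, all but Aldh2 and Aldh7a1.

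The members, lists and rules were chosen with earlier results of these data known. Besides the 10 genes, the rule for named genes took from each list the genes past 4-fold and up to 2 more with the largest difference above the median, and the 3 genes closest in pattern to each member past 4-fold. Further genes named with values, such as Hnmt, Maoa, Aoc1, Acly, Sirt3, Slc16a1, Aldh1a2, Aldh1a3, Aldh18a1 and the markers, were chosen after their values were seen. Listed genes without a probe set of their own were not analysed here. Alternatives covered the floor, the size, the scaling between arrays and the probe set that stands for a gene.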

Additional observations from a re-analysis of the deposited data

How the results depend on the processing

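No paired analysis was possible because each population has 1 array. Without a floor, with the floor at the 75th percentile, with 2-fold in place of 4-fold and after quantile normalization, the number of the 10 genes counted was that of the report in all 3 comparisons. Centring each array on its median left 1 gene in place of 2 for progenitors against ILC2s, since Aldh2 moved to 1.99, and changed no other count. The mean over probe sets left 0 in place of 1 for progenitors against mature cells, 0 in place of 2 for progenitors against ILC2s and 1 in place of 2 for mature cells against ILC2s. Taking the probe set with the lowest mean, an alternative added after the data were seen, left 0 in all 3 comparisons, since the second probe sets of Aldh2 and Acss1 are tied across the arrays. No called difference turned its sign, but averaging with a tied probe set can only shrink a difference. With the lowest mean, the differences of Aldh2 and Acss1 were 0. Quantile normalization gave Aldh2 differences of -2.10 (progenitors minus mature cells) and 2.17 (progenitors minus ILC2s), and Acss1 differences of -3.82 (progenitors minus ILC2s) and -3.81 (mature cells minus ILC2s). The median difference of the 10 genes moved by less than 0.1 under every alternative computed for it (scaling and probe set). The other 8 genes differ little, so this median hardly registers a change in Aldh2 or Acss1 and says nothing of how stable their differences are. Signal close to the array medians limits what can be seen of most of the other 8 genes. Aldh1a1, at 1.03 to 1.05 above the medians, and Aldh7a1, at 0.76 to 0.78 above, lay further from them. The values of Aldh7a1 were tied, which does not show equal expression.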

Other observations

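Acss2os, a long non-coding RNA gene next to Acss2 and named as its opposite strand, was at 5.91 in progenitors, at 6.76 in mature cells and at 5.91 in ILC2s. It was chosen after its values were seen, and its difference between the mast cell populations did not reach 2-fold.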
